A study of Mus musculus with 30 samples.

Results

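The chromatin of oxidative phosphorylation genes was followed through 96 ATAC-seq peaks of 75 genes, out of 38526 peaks of 14886 genes measured in cultured mouse natural killer (NK) cells. ATAC-seq tags open DNA with a transposase, so that the reads in a peak measure accessibility and not transcription. A peak was taken when the deposited table named beside it a gene beginning with Nduf, Uqcr, Cox4, Cox5, Cox6, Cox7, Cox8 or Atp5, or one of Sdha, Sdhb, Sdhc and Sdhd. The rule used gene names and no measured value, but it was set with earlier results of these data known. By the classes of the table, 73 of these peaks were promoter peaks, 15 were intergenic, 7 intronic and 1 exonic. The members comprised 34 complex I subunit genes, 5 complex I assembly factors, 4 genes of complex II, 6 of complex III, 13 of complex IV and 13 of complex V.

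NK cells came from spleens and had spent 5 days in culture, with IL-2 and IL15:IL15Ra added. The KO group had the genotype GzmbCre Ptger2-/- Ptger4 fl/fl, which lacks the prostaglandin E2 (PGE2) receptor EP2 throughout and loses the receptor EP4 where Cre is expressed from the granzyme B promoter; the WT group was C57BL/6J. Cells of each genotype received PGE2 at 100 ng/ml for 5 h or were left untreated, and were either stimulated through the activating receptor NK1.1 during the last 4 h or left resting. The groups were, for the KO and then for the WT, PGE2 with stimulation, stimulation alone, PGE2 at rest, and untreated rest. Each had 4 libraries, except the untreated resting KO group and the PGE2-treated resting WT group with 3 each. The WT mice had no Cre per the labels, so that receptor loss and Cre cannot be told apart in any comparison of genotypes. Nothing in the labels ties libraries to separate animals or cultures, and the p-values therefore speak only of the spread between libraries.

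The libraries held 8444350 to 20153816 reads in peaks. All 7 NK cell marker genes had promoter peaks (9 peaks, 7279 to 10060 normalised counts summed per library), while no promoter peak was assigned to any of the 6 T cell or 5 B cell markers in the table analysed here. Of the 5 myeloid markers, 1 had a promoter peak (Cd14, 165 to 311 normalised counts). Over all conditions, the Ptger2 promoter peak had 83.6 to 247 normalised counts in the 15 KO libraries and 560 to 1109 in the 15 WT libraries, and a Ptger4 exon peak had 56.2 to 152 in KO libraries and 434 to 685 in WT libraries. In untreated WT cells the Ifng promoter had 729 to 897 normalised counts with stimulation and 349 to 427 at rest.

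Oxidative phosphorylation takes place at the inner mitochondrial membrane. Complex I (NADH dehydrogenase) and complex II (succinate dehydrogenase) pass electrons through ubiquinone to complex III and on to complex IV (cytochrome c oxidase), which reduces oxygen, and complex V (ATP synthase) makes ATP from the proton gradient that complexes I, III and IV build. The members are nuclear genes, many of them with promoters active in nearly every cell and with binding sites for NRF1, the ETS factor GABP and YY1. In freshly isolated mouse NK cells, interferon-γ production triggered through activating receptors is known to need this pathway. Whether the cultured cells used here had that need was not tested.

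Promoter sequence was available from RefSeq (GRCm38.p6) for 61 of the 75 genes as windows of 300 bases, from 250 before to 50 after the start of the gene, and 60 of the 73 member promoter peaks contained the start of their own window. The windows of 4 genes are shown because their peaks carry the contrasts described below: Ndufb6 and Cox7a1 opened with stimulation and were lower with PGE2, Ndufb4 did so by a smaller step and holds 3 NRF1 matches, and Atp5b was called in no comparison. Capitals mark every match to the 7 motifs searched, read on both strands with overlapping matches counted; positions run 5′ to 3′ on the strand of the gene.
Ndufb6 (chr4:40279372-40279671, minus strand): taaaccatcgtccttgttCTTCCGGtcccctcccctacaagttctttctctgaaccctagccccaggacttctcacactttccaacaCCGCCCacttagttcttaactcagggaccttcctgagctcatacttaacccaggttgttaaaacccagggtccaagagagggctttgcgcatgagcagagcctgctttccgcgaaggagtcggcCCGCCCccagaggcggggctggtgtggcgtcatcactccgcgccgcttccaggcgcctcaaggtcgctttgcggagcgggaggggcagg
Cox7a1 (chr7:30183921-30184220, plus strand): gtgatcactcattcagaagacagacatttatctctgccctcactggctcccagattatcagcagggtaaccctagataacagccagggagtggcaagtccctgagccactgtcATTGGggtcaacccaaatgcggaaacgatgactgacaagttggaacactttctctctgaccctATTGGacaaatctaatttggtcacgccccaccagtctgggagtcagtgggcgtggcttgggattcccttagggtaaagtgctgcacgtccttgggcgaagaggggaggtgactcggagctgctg
Ndufb4 (chr16:37654319-37654618, minus strand): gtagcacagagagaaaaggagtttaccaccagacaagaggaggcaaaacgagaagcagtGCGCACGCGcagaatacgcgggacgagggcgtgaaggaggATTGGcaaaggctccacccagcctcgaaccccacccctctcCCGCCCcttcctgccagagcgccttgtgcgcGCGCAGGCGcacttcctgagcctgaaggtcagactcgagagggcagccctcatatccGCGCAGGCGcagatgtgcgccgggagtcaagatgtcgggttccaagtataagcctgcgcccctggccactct
Atp5b (chr10:128083057-128083356, plus strand): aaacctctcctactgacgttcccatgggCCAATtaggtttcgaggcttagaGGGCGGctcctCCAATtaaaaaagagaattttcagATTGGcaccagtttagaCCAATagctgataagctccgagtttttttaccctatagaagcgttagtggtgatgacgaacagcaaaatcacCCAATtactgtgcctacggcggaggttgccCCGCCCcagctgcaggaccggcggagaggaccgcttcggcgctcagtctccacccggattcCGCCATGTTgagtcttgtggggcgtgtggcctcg
The Ndufb6 window holds 1 ETS and 2 SP matches, the Cox7a1 window 2 NF-Y matches and none of the others, the Ndufb4 window 3 NRF1, 1 SP and 1 NF-Y match, and the Atp5b window 5 NF-Y, 2 SP and 1 YY1 match.

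Across the 60 member windows the NRF1 letters GCGCANGCG occurred in 28.3%, against 14.6% of the 10390 RefSeq windows whose start lay in any promoter peak and 6.35% of all 27025 windows. The ETS letters CCGGAAG occurred in 28.3% of member windows, against 19.5% and 9.08%, and the YY1 letters AANATGGCG in 15.0%, against 5.62% and 2.51%. SP letters, GGGCGG, occurred in 38.3% of member windows, below the 68.6% of open windows and near the 35.6% of all windows. The remaining motifs were the CRE TGACGTCA (6.67%, against 3.46% and 1.78%), the AP-1 letters TGANTCA (6.67%, against 4.39% and 7.91%) and the NF-Y letters CCAAT (40.0%, against 38.4% and 37.8%). These shares describe letters in the windows and say nothing of binding.

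**Figure D1:**
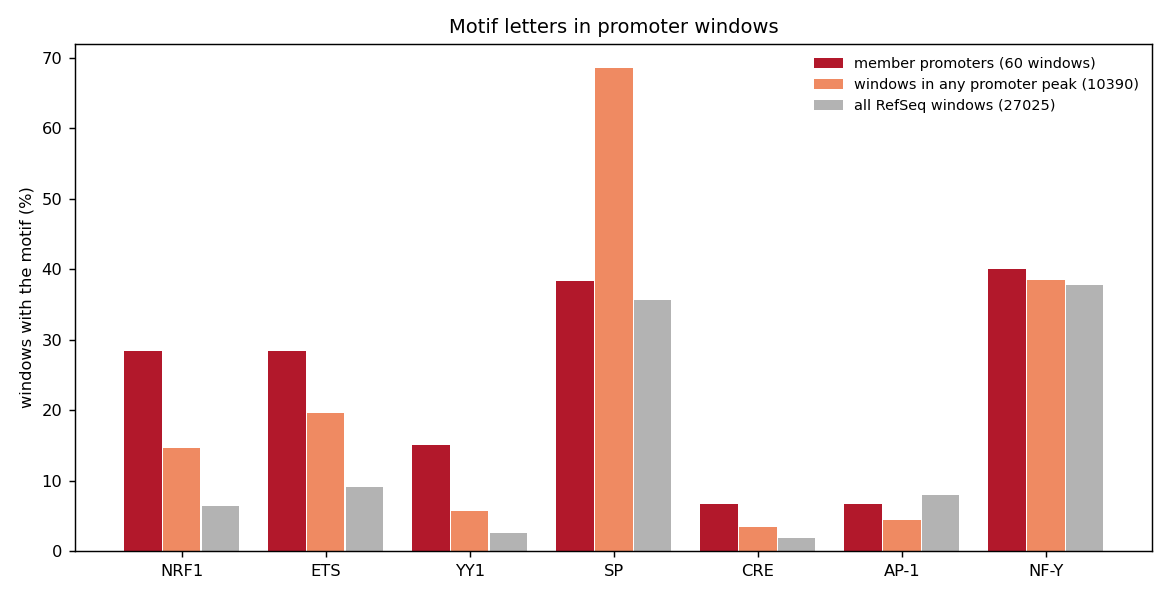
Percentage of 300-base promoter windows that hold each of 7 motifs, for 60 member promoters, for 10390 windows whose start lies in any promoter peak and for all 27025 RefSeq windows. Member bars stand above both others for NRF1, ETS, YY1 and CRE, and slightly for NF-Y. The SP bar of members (38.3%) is well under that of open windows (68.6%).

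Some of these promoters are shared with another gene. Of the 73 member promoter peaks, 16 also covered the annotated start of a neighbour, and 15 held the starts of 2 or more genes, as did 1618 of all 12048 promoter peaks (13.4%). Examples are Atp5j with Gabpa, which encodes the DNA-binding subunit of GABP, Sdhd with Timm8b, a mitochondrial import factor, Ndufa7 with the ribosomal protein gene Rps28, and Uqcrh with Lrrc41. Accessibility at such a peak cannot be given to either gene.

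Levels are given per length. Per kilobase of peak, the mean normalised count over all 30 libraries had a median of 381 across the 73 member promoters and 344 across all promoter peaks. The median within-group SD was 0.11 on the log2 scale for member promoters and 0.13 for all promoter peaks. The 23 members outside promoters had a median level of 86.6 per kilobase, against 119 for all peaks outside promoters.

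The 3 complex II promoter peaks had the highest median (584 normalised counts per kilobase, from 348 at Sdhc to 701 at Sdhb). That median is the value of the Sdhd peak, which is shared with Timm8b. The assembly factors had the lowest median (199.6, from 177 at Ndufaf4 to 360.1 at Ndufaf7). The other medians were close together: 403 for complex I, 400.2 for complex III, 408 for complex IV and 351 for complex V. Atp5g1, which encodes subunit c of the rotating membrane ring, had the highest promoter level of all members (1605 per kilobase), and Ndufs8, a core subunit with iron-sulfur clusters, had 1404. Cox6a2, the heart and muscle isoform of subunit 6A, had the lowest at 63.0, below the ubiquitous Cox8a at 907 in the same complex and below Ndufa9 (122), Atp5l (159) and Uqcr11 (194).

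NK1.1 stimulation of untreated WT cells moved member peaks in both directions. Stimulated libraries were higher at 15 of the 96 members and lower at 15, against 28.9% and 27.4% of all peaks. Among promoters, 11 of 73 were higher and 10 were lower, against 19.5% and 21.7% of all promoter peaks. Scaling libraries to the median of all promoter peaks kept 15 members higher and 15 lower. Scaling by total reads in peaks gave 14 and 18 (promoters 10 and 13). Leaving out 1 library gave 13 to 17 higher and 11 to 14 lower. The changes were small: 5.48% of member promoters moved by more than 0.5 on the log2 scale, against 14.2% of all promoters, and outside promoters the shares were 26.1% and 52.4%. The median log2 change was 0.02 over member promoters and −0.03 over all promoter peaks. In such bulk libraries, a peak open in more cells and a peak more open in each cell cannot be told apart.

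Ndufb6, an accessory subunit in the membrane arm of complex I, was the promoter that rose most. Its peak had 956, 804, 795 and 806 normalised counts in stimulated WT libraries, against 455, 476, 481 and 478 at rest. No stimulated library came near a resting one, and the log2 change was 0.82 ± 0.07 (SE; adjusted p = 4.76e-12). The KO gave the same picture with 952, 821, 765 and 744 normalised counts stimulated and 505, 441 and 453 at rest, a log2 change of 0.81 ± 0.08 (adjusted p = 6.63e-11).

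The Atp5mpl and Cox7a1 promoters rose next most. Atp5mpl, which encodes a small membrane subunit of ATP synthase, had 532, 443, 529 and 526 normalised counts in stimulated WT libraries, against 341, 304, 288 and 339 at rest (log2 change 0.67 ± 0.08, adjusted p = 1.12e-08). Cox7a1, the heart and muscle isoform of subunit 7A, had 237, 195, 241 and 210.0, against 131, 163, 148 and 122 (log2 change 0.65 ± 0.13, adjusted p = 4.73e-05). In both, all stimulated libraries exceeded all resting ones. In the KO both rose as well, by 0.38 ± 0.09 for Atp5mpl and 0.42 ± 0.14 for Cox7a1.

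The other promoters that rose in WT cells did so by 0.20 to 0.35 on the log2 scale. They were mostly complex I accessory subunits: Ndufb10 (0.35 ± 0.08), Ndufa12 (0.31 ± 0.07), Ndufb8 (0.27 ± 0.09), Ndufb4 (0.26) and Ndufb9 (0.20 ± 0.08), with the assembly factor Ndufaf7, a methyltransferase (0.24), Ndufa4l2, a homologue of Ndufa4 known as a hypoxia-induced gene (0.29 ± 0.08), and Uqcrq, a small complex III subunit (0.28 ± 0.08). Complex I promoters that fell included Ndufa6, an accessory subunit (−0.26 ± 0.08), and Ndufs4, an accessory subunit of the NADH-oxidising module (−0.43 ± 0.13).

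Of the 6 complex III promoters, 3 fell and 1 rose, against 21.7% and 19.5% of all promoter peaks. Those that fell were Uqcr11 (−0.28), Uqcrc1, a core subunit (−0.21 ± 0.08), and Uqcrfs1, the Rieske iron-sulfur protein (−0.20 ± 0.07). The Uqcrc1 call was lost without replicate 3 or 4 of the resting or replicate 2 of the stimulated libraries. In complex IV the muscle isoform Cox6a2 fell by 0.85 with an SE of 0.20, with 46.5, 63.7, 38 and 46.9 normalised counts in stimulated libraries, against 98.1, 86.5, 90.3 and 76.4 at rest. In the KO its stimulated libraries, with 91.3, 74.9, 50.6 and 57.3 normalised counts, overlapped the resting ones, with 74, 97.4 and 72.9, and the change was −0.27 ± 0.22 (adjusted p = 0.305). The difference between genotypes was 0.58 ± 0.30 and was not called (adjusted p = 1).

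At complex V promoters, 1 of 13 rose and 0 fell in WT cells, against 19.5% and 21.7% of all promoter peaks. Limma called 0 of 5 complex II peaks, against 28.9% of all peaks higher and 27.4% lower, with 0 at an unadjusted p under 0.05 and 0 called by edgeR or DESeq2. With libraries scaled by their total reads in peaks, limma called the Sdhb promoter lower (log2 change −0.18, adjusted p = 0.041). Atp5g1 had 2549, 2361, 2333 and 2403 normalised counts in stimulated WT libraries and 2327, 2393, 2416 and 2569 at rest, a log2 change of −0.01 ± 0.08. The log2 change was −0.07 ± 0.07 at Atp5b, the catalytic β subunit, and at Atp5a1, the α subunit, 0.06 ± 0.07; neither passed the test in WT cells, while Atp5a1 rose in the KO (0.19 ± 0.08, adjusted p = 0.0333). Over all 11 comparisons, 40 of 73 member promoters (54.8%) were called in none, against 43.8% of all promoter peaks, and complex V had the highest share, 10 of 13.

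Stimulation of untreated KO cells gave 20 members higher and 16 lower, against 28.1% and 26.4% of all peaks, and 13 and 12 promoters, against 17.9% and 23.2% of all promoter peaks. With libraries scaled by their total reads in peaks the split was 12 higher and 19 lower. The comparisons in WT and KO share no library, and 13 peaks were higher in both, which is 86.7% of those in WT and 65% of those in the KO, against 88% and 90.5% over all peaks. Another 10 were lower in both, 66.7% and 62.5%, against 79.9% and 83% over all peaks. A test of the difference between genotypes called 0 of 96 members, against 0.0026% of all peaks higher and 0.00519% lower, with 6 at an unadjusted p under 0.05 and 0 called by edgeR or DESeq2. Sdhb, the iron-sulfur subunit of complex II, passed the test in the KO (−0.34 ± 0.09, adjusted p = 0.00101, beside −0.15 ± 0.08 in WT), and the difference of these effects was −0.19 ± 0.12 (adjusted p = 1).

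The strongest changes lay outside promoters, in peaks that the table gives to a member but that lie at a distance from it. A peak 19.5 kb from Uqcrfs1 (chr13:30564830-30565479, mm10) was nearly closed at rest. It had 82, 52.9, 119 and 88.5 normalised counts in stimulated WT libraries, against 1.57, 8.75, 5.89 and 19.1 at rest, a log2 change of 3.44 ± 0.41 (adjusted p = 4.7e-09), while the Uqcrfs1 promoter itself fell. KO libraries had 108, 93.2, 178 and 139.6 with stimulation and 12.1, 18.6 and 7.59 at rest (log2 change 3.28 ± 0.45).

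A peak 30.7 kb from Atp5o (chr16:91962305-91963050), which encodes the stalk subunit OSCP, opened too. It had 50.6, 38, 69 and 83.3 normalised counts in stimulated WT libraries, against 15.7, 24.3, 13.8 and 22.7 at rest (log2 change 1.58 ± 0.38), and 89.8, 116, 129 and 96.5 in stimulated KO libraries, against 3.02, 30.5 and 28.1 at rest (log2 change 2.80 ± 0.42). The Atp5o promoter did not pass the test in WT (0.02 ± 0.10). Both peaks assigned to Cox4i2, the hypoxia-linked isoform of subunit 4, lie within the body of Bcl2l1, which encodes the survival protein BCL-xL. The one 1.3 kb from Cox4i2 rose in WT and KO cells (0.75 ± 0.21 and 0.78 ± 0.22).

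Closing with stimulation was strongest at a peak 9.5 kb from Ndufa9 (chr6:126811280-126812322). It fell to 165, 183, 112 and 128 normalised counts in stimulated WT libraries, against 404, 388, 357 and 333 at rest (log2 change −1.35 ± 0.17, adjusted p = 1.99e-08), and by a like step in the KO (−1.32 ± 0.19). The Ndufa9 promoter did not pass the test (−0.16 ± 0.15). An intronic peak of Ndufa10 fell in both genotypes (−0.59 ± 0.08 in WT, −0.54 ± 0.09 in the KO). A peak within Rgs22 that is assigned to Cox6c had 97.2, 58.3, 68.2 and 67.7 normalised counts in stimulated WT libraries, against 124, 119, 118 and 125 at rest, and fell by 0.76 with an SE of 0.15. In KO libraries it had 113, 109.9, 121 and 114 stimulated and 93.7, 104 and 85.8 at rest (0.28 ± 0.17, adjusted p = 0.157), and the difference of the effects was 1.03 ± 0.23 (adjusted p = 0.422).

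Within Ndufs4 the promoter and an intronic peak moved in opposite directions. The intronic peak (chr13:114304275-114305573) had 1321, 1252, 1219 and 1366 normalised counts in stimulated WT libraries, against 886, 1040.0, 991 and 921 at rest, and rose by 0.43 ± 0.07. The promoter had 165, 161, 167 and 159.6 normalised counts stimulated, against 196, 204, 275 and 213 at rest, and fell. The groups did not overlap in either peak.

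**Figure D2:**
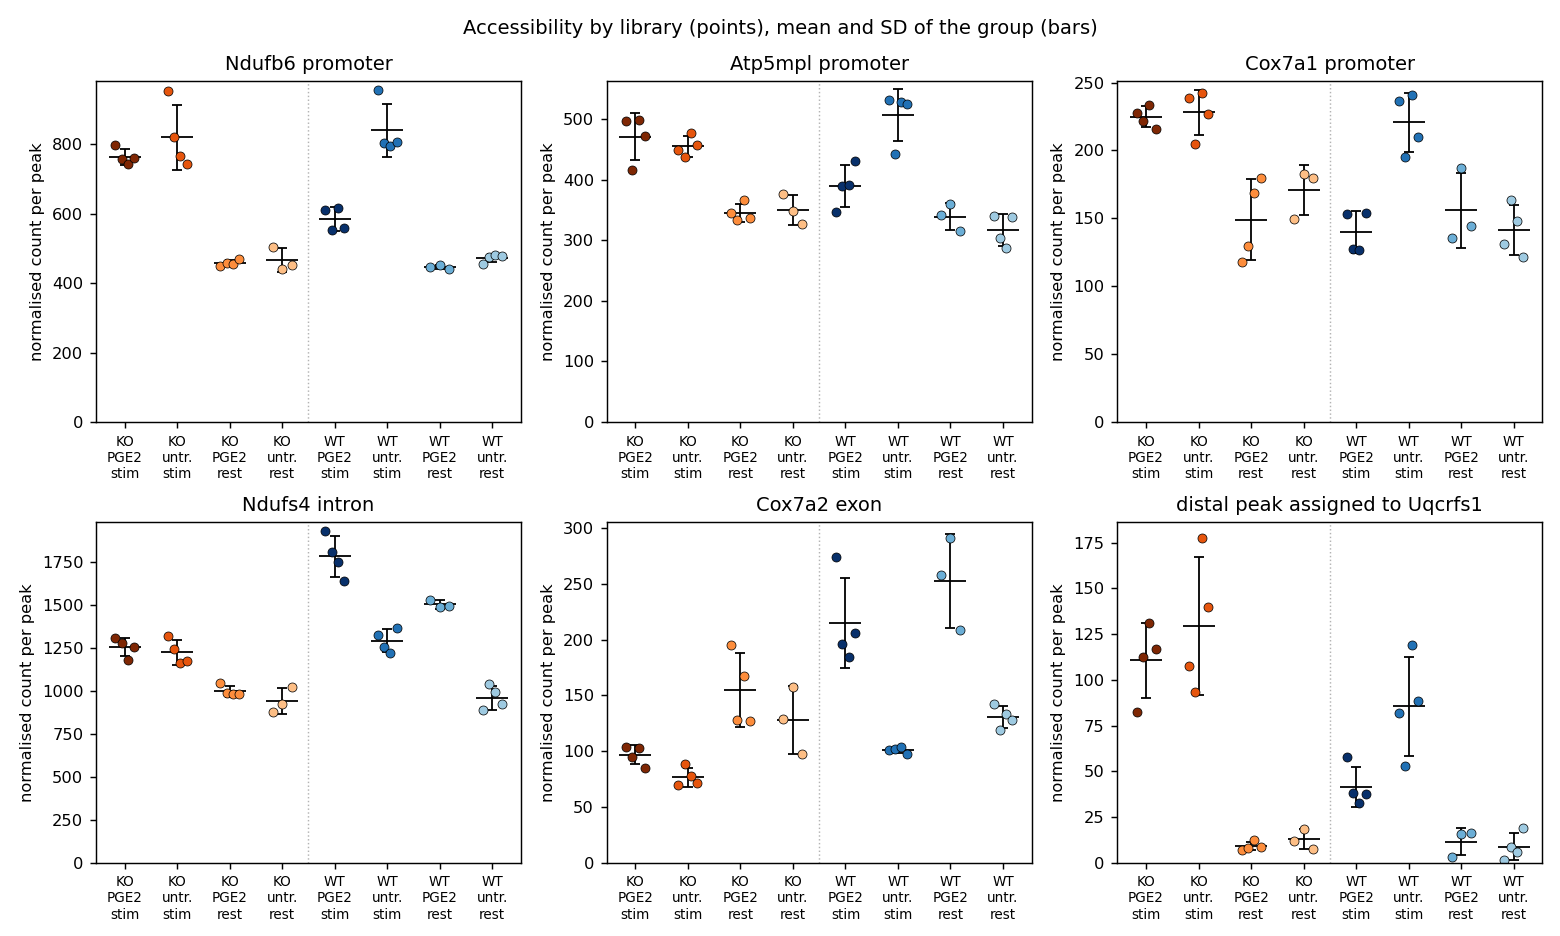
Normalised counts of 6 member peaks in each library (points), with group means and SDs (bars), for KO groups at the left and WT groups at the right of each panel. The Ndufb6, Atp5mpl and Cox7a1 promoters are higher in stimulated than in resting KO libraries and in untreated stimulated than in untreated resting WT libraries, with WT libraries given PGE2 and stimulation below the other stimulated groups on average; the Ndufs4 intron and Cox7a2 exon have their 2 highest group means in WT libraries with PGE2.

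PGE2 given during stimulation of WT cells lowered more member promoters than it raised. Libraries with PGE2 were higher at 9 of 96 members and lower at 18, against 20.2% and 20.4% of all peaks. Of the 73 promoters, 1 was higher and 14 were lower, against 7.1% and 19.9% of all promoter peaks. The median log2 change was −0.10 over member promoters and −0.07 over all promoter peaks, and the share of member promoters that fell was near that of all promoters. The split depended on the scaling: it was 13 higher and 11 lower (promoters 5 and 9) when libraries were scaled to the median of all promoter peaks, a setting under which 61.8% and not 49.7% of all calls were higher, and promoters were split 3 and 13 under scaling by total reads. Same-numbered libraries deviated together here, and with the replicate number as a block 9 members were higher and 20 lower.

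The Ndufb6, Atp5mpl and Cox7a1 promoters were among those that fell with PGE2. The untreated stimulated WT libraries are shared with the comparison of stimulation above, so the changes in WT cells are not independent of each other. Ndufb6 had 610.4, 552, 616 and 559 normalised counts in WT libraries with PGE2 and stimulation, against 956, 804, 795 and 806 with stimulation alone (log2 change −0.52 ± 0.07, adjusted p = 4.81e-07), and without the high replicate 1 of the untreated group it was −0.46. Atp5mpl had 347, 390.4, 391 and 432 with PGE2, against 532, 443, 529 and 526 without (log2 change −0.38 ± 0.08, adjusted p = 0.000373). Cox7a1 had 153, 127, 126 and 154 with PGE2, against 237, 195, 241 and 210.0 without (log2 change −0.65 ± 0.13, adjusted p = 8.09e-05). In none of the 3 did the libraries of the groups overlap.

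Of genes counted as complex I by name, 8 of 34 subunit promoters and 2 of 5 assembly factor promoters fell, beside 19.9% of all promoters. Ndufb8 fell by 0.38 with an SE of 0.09 and Ndufa4l2 by 0.35 with an SE of 0.08, followed by Ndufb9 (−0.29 ± 0.08), Ndufs3, a core subunit (−0.27), Ndufa12 (−0.26 ± 0.07), Ndufb4 (−0.23) and Ndufb10 (−0.22 ± 0.08). Ndufaf7 (−0.28) and Ndufaf5, which hydroxylates a core subunit (−0.25 ± 0.09), were the assembly factors. In complex III, Uqcrq (−0.26 ± 0.08) and Uqcrh, the hinge protein (−0.20 ± 0.07), fell. The peaks of Ndufs3, Ndufaf5 and Uqcrh also cover the starts of Kbtbd4, Esf1 and Lrrc41. Cox7a1 was the sole complex IV promoter of 12 that was called and Atp5mpl the sole complex V promoter of 13. Cox5a, a nuclear-encoded subunit of complex IV, had a log2 change of −0.20 ± 0.09 (adjusted p = 0.0873) and passed the test with the replicate block (adjusted p = 0.0463). The Ndufs4 promoter was the one member promoter that rose (0.35 ± 0.13, adjusted p = 0.0259).

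**Figure D3:**
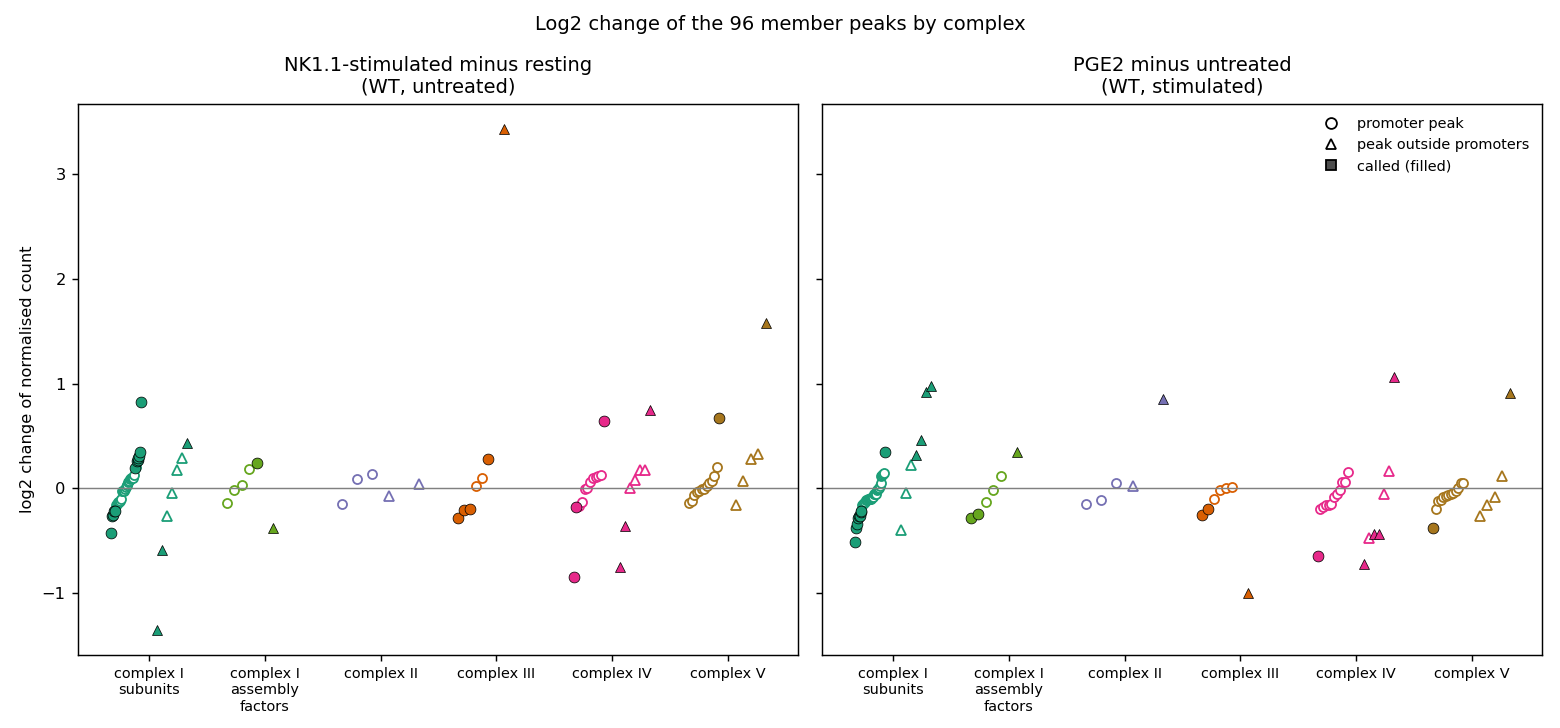
Log2 change of each of the 96 member peaks by complex, for stimulated minus resting untreated WT cells (left) and for PGE2 minus untreated stimulated WT cells (right); circles are promoter peaks, triangles other peaks, and filled symbols were called at an adjusted p under 0.05. Stimulation gives filled circles on both sides of 0, whereas with PGE2 the filled circles lie below 0 except for the Ndufs4 promoter.

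A comparison without shared libraries set the PGE2 effect in WT cells beside stimulation in the KO. Of the 20 members that rose with stimulation of KO cells, 12 were lower with PGE2 in stimulated WT cells, which is 60% of the 20 and 66.7% of the 18 that fell with PGE2, against 56.8% and 78.3% over all peaks. Among promoters these were 10 of 13 (76.9%) and 10 of 14 (71.4%), against 71.4% and 64.1% over all promoter peaks: Atp5mpl, Cox7a1, Ndufa12, Ndufa4l2, Ndufaf5, Ndufb10, Ndufb4, Ndufb6, Ndufb9 and Uqcrq. Of the 16 members that fell with stimulation of KO cells, 4 were higher with PGE2 in stimulated WT cells (25%, and 44.4% of the 9, against 46.5% and 61% over all peaks): Cox7a2, Ndufa10, Ndufa9 and Ndufaf6, all through peaks outside promoters.

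Whether the effect of PGE2 depended on stimulation was tested as an interaction in WT cells, taking the PGE2 change of stimulated cells minus the PGE2 change of resting cells. It was called higher at 3 members and lower at 6, against 10.6% and 14.7% of all peaks. Scaling by total reads gave 4 and 5, and scaling to promoters 4 and 4. The 6 lower were all promoters: Cox7a1 (−0.79 ± 0.19), Atp5mpl (−0.47 ± 0.12), Ndufb6 (−0.44 ± 0.11), Uqcrq (−0.42 ± 0.11), Ndufb4 (−0.35) and Ndufaf7 (−0.33). The 3 higher were the distal Ndufa9 peak (1.17 ± 0.26), the peak assigned to Cox6c (0.59 ± 0.23, at the threshold) and the Ndufa10 intron (0.48 ± 0.12).

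**Figure D4:**
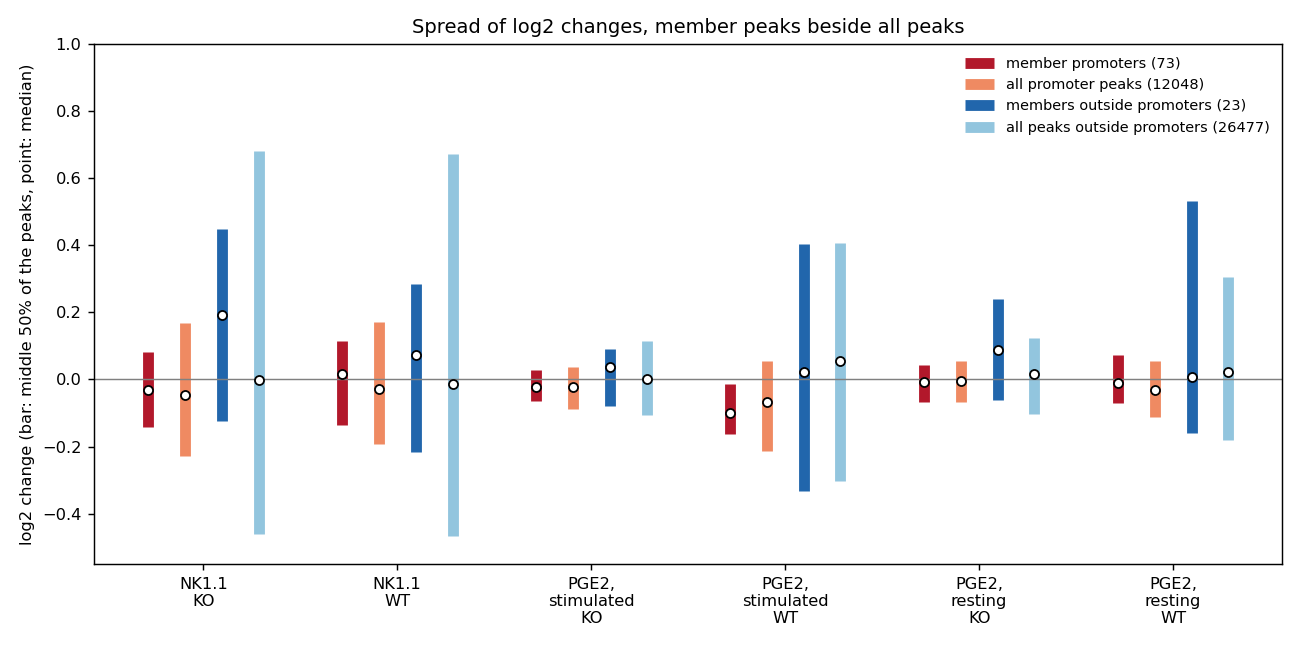
Median (point) and middle 50% (bar) of log2 changes for member promoters, all promoter peaks, members outside promoters and all peaks outside promoters in 6 comparisons, KO left of WT. Under stimulation of WT cells the bar of member promoters is shorter than that of all promoters, and with PGE2 in stimulated WT cells their median lies at −0.10, beside −0.07 for all promoters.

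Outside promoters, 8 of 23 members rose with PGE2 in stimulated WT cells and 4 fell, against 26.1% and 20.6% of all peaks outside promoters. The exonic peak of Cox7a2 (chr9:79755844-79756461), the widely expressed isoform of subunit 7A, had 274, 196, 184 and 206 normalised counts with PGE2, against 101, 102, 104 and 97.2 without (log2 change 1.07 ± 0.15, adjusted p = 3.46e-07). The distal Ndufa9 peak had 282, 298, 272 and 289 with PGE2, against 165, 183, 112 and 128 without (0.98 ± 0.17). All libraries with PGE2 exceeded all without it in both peaks. The Ndufs4 intron had 1929, 1806, 1748 and 1638 with PGE2, against 1321, 1252, 1219 and 1366 without (0.46 ± 0.07).

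Distal peaks of other members rose as well. A peak 66.4 kb from Ndufa10 rose by 0.92 ± 0.23, a peak 32.9 kb from Atp5o by 0.91 ± 0.23, and a peak 4.8 kb from Sdhd and 9.1 kb from Il18, the interleukin-18 gene, by 0.85 ± 0.31. The Ndufa10 intron (0.32 ± 0.08) and a peak 8.2 kb from the assembly factor gene Ndufaf6 (0.35) completed the 8. The 4 that fell were the distal Uqcrfs1 peak, with 57.7, 37.9, 32.6 and 37.4 normalised counts with PGE2, against 82, 52.9, 119 and 88.5 without (−1.01 ± 0.41, adjusted p = 0.0488), the Cox4i2 peak 10.2 kb from that gene (−0.72 ± 0.19), the Cox6a1 intron (−0.44 ± 0.12) and a peak 12.5 kb from Cox7a2l, a factor of respiratory supercomplexes (−0.44 ± 0.17). The Cox7a2l call was lost under 2 scalings and without replicate 1 or 3 of the libraries with PGE2 or replicate 1 or 2 of those without. The other Cox4i2 peak had a log2 change of −0.48 ± 0.21 (adjusted p = 0.0598) and passed with the replicate block (adjusted p = 0.0289).

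At rest, PGE2 raised 3 members in WT cells and lowered 0, against 10.9% and 4.03% of all peaks. Limma called 0 of 73 promoters, against 2.2% of all promoter peaks higher and 2.49% lower, with 3 at an unadjusted p under 0.05, 1 called by edgeR and 2 by DESeq2. Scaling by total reads gave 3 higher and 2 lower, TMM scaling 3 and 1, and 5 members were called without replicate 2 of the PGE2-treated libraries. All 3 peaks that rose were also among the 9 that rose with PGE2 in stimulated WT cells, in libraries not shared between the comparisons; over all peaks 50.9% of those that rose at rest did so.

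The Ndufs4 intron had 1530.0, 1484 and 1490.0 normalised counts in resting WT libraries with PGE2, against 886, 1040.0, 991 and 921 untreated (log2 change 0.65 ± 0.07, adjusted p = 1.71e-08). The Cox7a2 exon had 258, 292 and 208, against 142, 119, 134 and 128 (log2 change 0.94 ± 0.16, adjusted p = 4.05e-05). The distal Sdhd peak had 45.9, 48.4 and 41.6, against 14.9, 23.3, 17.7 and 28.7 (log2 change 1.104 ± 0.34, adjusted p = 0.0215). In all 3 the groups did not overlap. PGE2 and stimulation each raised the Ndufs4 intron, whereas at the Cox7a2 exon stimulation lowered it (−0.36 ± 0.15 in WT, −0.71 ± 0.16 in the KO) and PGE2 raised it; the WT call under stimulation was lost when any single library other than resting replicate 2 was left out.

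No member was called for PGE2 in KO cells. Limma called 0 of 96 at rest, against 0% of all peaks in either direction, with 4 at an unadjusted p under 0.05, and 0 of 96 during stimulation, against 0.0026% of all peaks higher and 0% lower, with 1 at an unadjusted p under 0.05. EdgeR and DESeq2 called 0 in both. The Ndufb6 promoter had 797, 759, 742 and 760.4 normalised counts in KO libraries with PGE2 and stimulation, against 952, 821, 765 and 744 with stimulation alone (−0.10 ± 0.07). The Ndufs4 intron had 1306, 1275, 1181 and 1253, against 1315, 1243, 1159 and 1173 (0.04 ± 0.07), and the Cox7a2 exon 104, 95.1, 103 and 85.2, against 69.2, 88.2, 78 and 71.5 (0.33 ± 0.15). At the Cox7a2 exon 3 of 4 libraries with PGE2 lay above all untreated ones, and at the other 2 peaks the groups overlapped. The distal Sdhd peak averaged 41.7 normalised counts with PGE2 and stimulation and 31.7 with stimulation alone (0.64 ± 0.31), with overlapping libraries. Its difference between genotypes in the PGE2 effect during stimulation was −0.22 ± 0.45 and was not called.

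The difference between the genotypes in the effect of PGE2 during stimulation, coded as KO minus WT, was called higher at 5 members and lower at 5, against 9.8% and 10.2% of all peaks, and at promoters higher at 4 and lower at 0, against 7.53% and 2.75% of all promoter peaks. The 5 lower became 3 without replicate 3 of untreated stimulated WT cells, replicate 4 of untreated stimulated KO cells or replicate 4 of KO cells with PGE2 and stimulation. The promoters were Cox7a1 (0.63 ± 0.18, adjusted p = 0.0105), Atp5mpl (0.43 ± 0.12, 0.0087), Ndufb6 (0.42 ± 0.10, 0.00316) and Ndufa12 (0.35 ± 0.10, 0.0116). Outside promoters the Cox6a1 intron was the fifth (0.52 ± 0.17). A negative difference, from PGE2 raising the peak in WT but not by the test in the KO, was called at 5 peaks. They were the Ndufs4 intron (−0.43 ± 0.10), the Cox7a2 exon (−0.74 ± 0.21), the distal Ndufa9 peak (−0.88 ± 0.25), the Ndufa10 intron (−0.35 ± 0.12) and the distal Ndufa10 peak (−0.91 ± 0.32). At the distal Ndufa10 peak, untreated stimulated libraries already averaged 93.1 normalised counts in the KO and 47.8 in WT. At rest the same test was called at 0 members higher and at 1 lower, against 1.24% and 4.94% of all peaks: the Ndufs4 intron (−0.56 ± 0.10, adjusted p = 0.000373). With the replicate block 3 members were called.

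**Figure D5:**
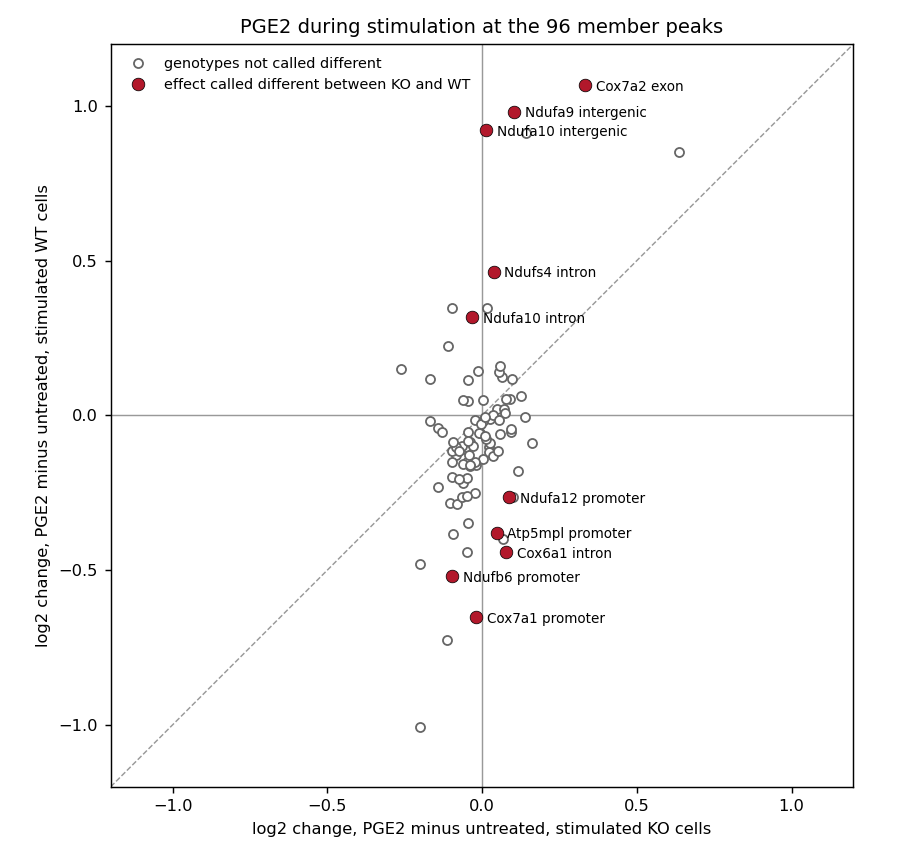
Log2 change of each of the 96 members with PGE2 during stimulation, in KO cells (horizontal) and in WT cells (vertical); the dashed line marks equal effects and red points the 10 peaks whose effects were called different. The KO values of the red points lie near 0 except for the Cox7a2 exon (0.33), while their WT values run from −0.65 at Cox7a1 to 1.07 at the Cox7a2 exon.

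Untreated resting KO cells differed from WT cells at 1 member. Limma called 0 members higher and 1 lower in the KO, against 1.09% and 0.636% of all peaks. This was the promoter of Ndufaf5, with 266, 250.5 and 291 normalised counts in KO libraries, against 346, 347, 398 and 333 in WT libraries (log2 difference −0.40 ± 0.10, adjusted p = 0.0195). The groups did not overlap, but the call was lost without WT library 3 (adjusted p = 0.0743) or KO library 3 (adjusted p = 0.144), and when only the 2 groups were fitted (adjusted p = 0.0546).

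Related mitochondrial gene lists were read from the same fits. Of all promoter peaks, 19.5% rose and 21.7% fell with stimulation of WT cells, and 7.1% and 19.9% with PGE2 in stimulated WT cells. For stimulation of WT cells, promoters rose and fell at 4 and 6 of 37 for other assembly factors and electron carriers, at 1 and 4 of 16 for the citric acid cycle and pyruvate dehydrogenase, at 12 and 7 of 63 for the mitochondrial ribosome, at 5 and 5 of 19 for regulators of mitochondrial gene expression, and at 1 and 1 of 7 for nucleotide and phosphate exchange. With PGE2 in stimulated WT cells the counts were 0 and 5, 0 and 2, 2 and 9, 1 and 4, and 0 and 2 in the same order. The median log2 changes of these promoters with PGE2 lay between −0.08 and −0.01, beside −0.10 for the members and −0.07 for all promoter peaks.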

How the data were processed

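ATAC-seq was read from 30 libraries of cultured splenic NK cells. Trimmomatic 0.39, Bowtie2 2.4.1, MACS2 2.2.7.1, DESeq2 and the build mm10 are named per the submitters' processing notes. The DESeq2 version, the handling of duplicates and the transposase offset are not given in the sources used. The deposited signal is a normalised read count per peak and library, beside coordinates, a gene and a class for each peak. In every library 100% of values were whole multiples of 1 read within a tolerance of 0.05, and 1 read was worth 0.663 to 1.66 normalised counts.

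Peaks with a mean of at least 10 were tested, which removed 1 peak and no member. Values were taken as log2(normalised count + 1), which understates changes of low peaks, and fitted with limma 3.58.1 in R 4.3.3 (trend, empirical Bayes, two-sided), with a mean for each of the 8 groups over all libraries and no replicate block. Adjusted p-values are Benjamini-Hochberg values over 38525 peaks within a comparison, and "called" means under 0.05. EdgeR 4.0.16 and DESeq2 1.42.0 were run on the recovered reads as alternatives, besides other scalings, filters and pseudocounts, the replicate block, fits of only the groups compared, and fits leaving out 1 library. The fit was tested on simulated data. Motifs and distances to genes used RefSeq (GRCm38.p6).

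The members and lists were chosen with earlier results of these data known. A rule named, in each of 4 comparisons, up to 8 called changes per direction, the largest ones, at 1 peak per gene, provided that libraries did not overlap and the group with more counts averaged 50 or more. It also named the promoters of fixed core subunits, all peaks of tissue isoforms, and up to 6 members called in each genotype test. Other peaks were named after their values were seen, among them Atp5g1, the distal Sdhd peak, the Cox6a1 intron and the smaller called promoters. Some named peaks and markers are not reported here. Ndufa4 and its homologue Ndufa4l2 count here as complex I by their names, though Ndufa4 is now known as a complex IV subunit. For PGE2 in stimulated cells, same-numbered libraries deviated together more than with any other number, in WT (r 0.12 to 0.21) and KO cells (0.22 to 0.53). In resting WT cells this also held, weakly (0.05 to 0.08). For PGE2 in resting KO cells r was 0.12 to 0.33, but replicate 4 correlated more with another number (0.16). Stimulation was mixed in both genotypes, and for the KO against WT other numbers correlated more. The numbers come from the sample titles.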

Additional observations from a re-analysis of the deposited data

Results flagged for a closer look

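The effect of PGE2 differed between genotypes at 10 members during stimulation and at 1 at rest, by the interaction test (log2, KO minus WT). During stimulation the difference was 0.634 at the Cox7a1 promoter, 0.521 at the Cox6a1 intron, 0.426 at the Atp5mpl promoter, 0.425 at the Ndufb6 promoter and 0.352 at the Ndufa12 promoter. It was −0.908 at the distal Ndufa10 peak, −0.876 at the distal Ndufa9 peak, −0.736 at the Cox7a2 exon, −0.426 at the Ndufs4 intron and −0.348 at the Ndufa10 intron. At rest it was −0.56 at the Ndufs4 intron.

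Single libraries stood apart from the other 3 of their group in 13 of 234 tests over named peaks, where chance gives about 11.7. The figure given is the gap to the nearest library over the range of the group, with 0.829 as the 95% limit. The distal Atp5o peak had a low library (replicate 2, 36.8 normalised counts, 0.831) in WT cells with PGE2 and stimulation. In WT cells with stimulation alone, Ndufb6 had a high one (replicate 1, 956, 0.932), Atp5mpl a low one (replicate 2, 443, 0.927) and the Uqcrfs1 promoter a high one (replicate 3, 564, 0.916). In untreated resting WT cells the Ndufv1 promoter was low in replicate 3 (0.914), the Uqcrfs1 promoter low in replicate 2 (0.867) and Cox5b low in replicate 4 (0.903). In KO cells with PGE2 at rest, replicate 1 was high at the Ndufs4 intron (0.912) and at Ndufv1 (0.875), and replicate 3 low at the Uqcrfs1 promoter (0.834). In KO cells with PGE2 and stimulation, replicate 1 was high at the Ndufa9 promoter (0.962) and replicate 3 low at the Uqcrfs1 promoter (0.886). With stimulation alone, KO replicate 1 was high at the Sdhd promoter (0.944).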

How the results depend on the processing

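Of 77 changes at named peaks, 42 were called, 38 of them under every setting run. These changes gave 1436 readings under the alternative settings: 1407 kept their side of the threshold, 19 lost the call, 10 gained it and none reversed. Total counts of members called moved by over 1.5 times in 4 comparisons, and the cause was not tested. For PGE2 in resting WT cells 3 became 5 under total reads, 5 with only the groups compared, 5 with edgeR and 6 with DESeq2, and 2 to 5 leaving out 1 library. For the KO against WT, 1 became 0 with only the groups compared and 0 to 1 leaving out 1 library. For the genotype test of PGE2 at rest, 1 became 2 with a pseudocount of 5, 2 with edgeR, 2 with DESeq2, 3 with the replicate block, and 1 to 3 leaving out 1 library (3 without replicate 4 of untreated resting KO cells). For the genotype test of stimulation, 0 became 1 without replicate 1 of stimulated untreated WT cells (the peak assigned to Cox6c), and 0 to 1 leaving out 1 library. Leaving out 1 library gave 24 to 29 called for stimulation of WT cells (30 with all), 28 to 31 in the KO (36), 21 to 24 for PGE2 in stimulated WT cells (27), 7 to 11 for its genotype test (10; 3 to 5 of them lower) and 6 to 10 for PGE2 by stimulation (9). With the replicate block, stimulation gave 15 higher and 15 lower in WT cells, and 19 and 15 in the KO. PGE2 at rest in WT cells gave 4 and 0, and the KO against WT gave 0 and 1. The block gave 2 and 8 for PGE2 by stimulation, and 6 and 6 for the genotype test of PGE2 in stimulated cells. Scaling to promoters was chosen after seeing the data. The largest standard errors among the members were those of the distal Uqcrfs1 peak, up to 0.45 between groups and up to 0.63 in the interaction tests.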
